A study of Mus musculus with 8 samples.

Results

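The 9 genes described here are C1qa, C1qb, C1qc, C1ra and C4b of the classical branch, C3, Cfb and Cfp (properdin) of the alternative branch, and the inhibitor gene Cd55. They were taken by symbol from a table of 22962 genes, where each of the 9 had a row whose Entrez identifier carried the same symbol in RefSeq. All 9 passed the minimum of 0.5 FPKM in the mean over the 8 libraries. FPKM is the number of reads of a gene relative to its length and to the reads of the library, so levels of different genes are compared per length.

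The complement system is a cascade of blood and tissue proteins that marks particles for uptake, attracts leukocytes and can open membranes. In its classical branch, C1q, assembled from the products of C1qa, C1qb and C1qc, binds antibody or altered surfaces and switches on the proteases C1r and C1s, which cut C4 and C2. In its alternative branch, C3 pairs with factor B, which factor D cuts, and properdin holds the resulting enzyme together. Membrane and soluble inhibitors, among them CD55, take these enzymes apart. In fat, adipocytes and their progenitors are known to make C3, factor B and factor D, and resident macrophages are known to make C1q.

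Bulk RNA sequencing was done on wild-type mouse cells of the stromal vascular fraction of gonadal fat that had been turned into adipocytes in culture. The fraction is what is left of fat tissue after the floating adipocytes are taken off, and it also holds progenitors, macrophages and vessel cells. The cultures received DoxSa (4 libraries) or its solvent control DMSO (4 libraries) on day 6. What DoxSa stands for is not written in the labels. The title of the series concerns 1-deoxysphingolipids, sphingolipids built from alanine in place of serine. The sources used here give no dose, length of exposure, or age or sex of the mice. They also do not tell whether each replicate was its own culture or mouse, and p-values therefore speak of the spread between these libraries, which may be technical.

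Library totals, recovered from the steps of the FPKM values, lay between 39213008 and 41365861 reads. Adipocyte markers were abundant, with Fabp4 at 8603 to 9187 FPKM in DoxSa and 8512 to 8906 FPKM in DMSO, and Adipoq at 754 to 799 FPKM in DoxSa and 730.0 to 794.5 FPKM in DMSO. Macrophage markers were also abundant, with Lyz2 at 4795 to 5263 FPKM in DoxSa and 4328 to 5100 FPKM in DMSO, and Adgre1, the gene of F4/80, at 172 to 191 FPKM in DoxSa and 162 to 186 FPKM in DMSO. The fibroblast list was led by Col3a1, at 1327 to 1553 FPKM in DoxSa and 1358 to 1471 FPKM in DMSO. Of the mesothelium list, only Krt19 passed the minimum of 0.5 FPKM, with 11.1 to 15.4 FPKM in DoxSa and 16.1 to 16.8 FPKM in DMSO. Msln, Upk3b, Lrrn4 and Wt1 of that list averaged 0.0678, 0.00753, 0.0329 and 0.422 FPKM over the 8 libraries. S100a8 of neutrophils had 1.54 to 3.28 FPKM in DoxSa and 1.63 to 3.05 FPKM in DMSO. Markers of T and B lymphocytes, mast cells and dendritic cells, led by Cd4, Kit and Zbtb46, were low. Their summed levels were at most 0.822 FPKM in DoxSa and 0.776 FPKM in DMSO for any of these lists. Of these markers only Zbtb46 passed the minimum of 0.5 FPKM, with a mean of 0.652 FPKM over the 8 libraries.

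DoxSa was set against DMSO to see which of these genes change on exposure to the compound. Cfp and Cd55 rose in DoxSa, with folds of 1.242 and 1.254 on the FPKM + 1 scale, and none of the 9 fell. The C1q chains, the most abundant of the 9, and C1ra, C4b, C3 and Cfb did not pass the test. The 2 of 9 called higher stand beside 3.88% of all 12060 tested genes called higher, and the 0 of 9 called lower beside 2.02%, or 5.9% in either direction (limma on log2(FPKM + 1), Benjamini-Hochberg adjusted p under 0.05). Over all tested genes, 468 were higher and 244 lower, or 384 higher and 316 lower with quantile normalization. Without DoxSa 1 the counts were 250 higher and 154 lower, without DoxSa 2 they were 234 and 152, and without DMSO 2 the number lower was 158. The median log2 fold change was 0.11 over the 9 genes and 0.01 over all tested genes, and 7 of the 9 were above 0, as were 6839 of all 12060.

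**Figure D1:**
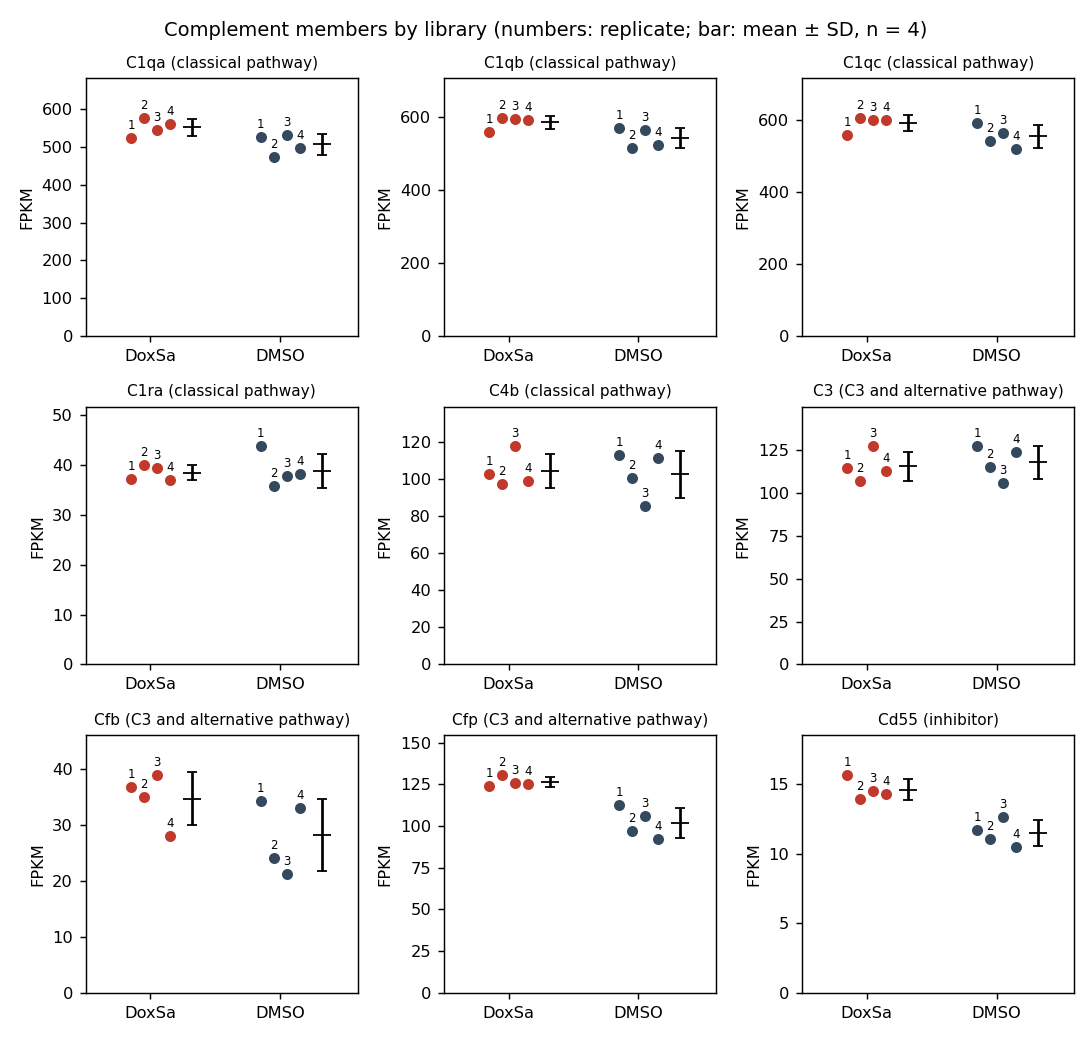
FPKM (vertical axis, from 0) of the 9 complement genes in each DoxSa and DMSO library, numbered by replicate, with the mean ± SD of each group (n = 4). For Cfp and Cd55 every DoxSa point lies above every DMSO point, and in the other panels the groups overlap.

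Promoter windows of the genes on which these results turn are shown so that the starts of Cfp and Cd55, which rose, can be read beside those of C1qb and C1qc, whose levels vary together. RefSeq windows of 250 bases before to 50 bases after the start were at hand for 6 of the 9 genes, on build GRCm38.p6, while the expression table was made on GRCm39. Capitals mark the core of sites for PU.1, a transcription factor of myeloid cells, spelled GAGGAA on either strand.
Cfp, chrX:20931506-20931805, minus strand: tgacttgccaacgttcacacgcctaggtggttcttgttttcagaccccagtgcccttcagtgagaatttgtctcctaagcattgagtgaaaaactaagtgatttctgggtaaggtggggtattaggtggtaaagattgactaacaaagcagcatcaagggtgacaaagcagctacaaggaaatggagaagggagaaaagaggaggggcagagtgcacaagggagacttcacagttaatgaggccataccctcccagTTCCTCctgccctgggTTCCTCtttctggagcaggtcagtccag
Cd55, chr1:130462695-130462994, minus strand: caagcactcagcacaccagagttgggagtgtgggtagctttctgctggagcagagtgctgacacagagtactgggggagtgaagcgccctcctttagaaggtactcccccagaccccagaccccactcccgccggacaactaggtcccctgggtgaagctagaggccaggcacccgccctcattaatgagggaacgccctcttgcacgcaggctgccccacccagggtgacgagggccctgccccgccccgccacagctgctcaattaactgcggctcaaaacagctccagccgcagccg
C1qb, chr4:136886151-136886450, minus strand: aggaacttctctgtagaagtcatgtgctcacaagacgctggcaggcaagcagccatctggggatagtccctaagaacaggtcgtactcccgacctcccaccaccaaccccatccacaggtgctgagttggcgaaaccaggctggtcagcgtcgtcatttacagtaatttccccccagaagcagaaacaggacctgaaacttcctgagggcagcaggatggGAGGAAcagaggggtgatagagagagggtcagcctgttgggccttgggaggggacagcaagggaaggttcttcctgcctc
C1qc, chr4:136892865-136893164, minus strand: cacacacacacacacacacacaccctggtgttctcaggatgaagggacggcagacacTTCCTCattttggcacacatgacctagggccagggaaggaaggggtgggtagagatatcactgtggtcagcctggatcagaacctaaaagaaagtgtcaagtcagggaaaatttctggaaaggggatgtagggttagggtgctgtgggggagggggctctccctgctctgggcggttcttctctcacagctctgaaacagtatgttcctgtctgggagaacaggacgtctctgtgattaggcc

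The Cfp window held this core 2 times, both just after the start, at positions 7 and 23, counted from 1 at the start to the leftmost base of the match. C1qb held it at position -30, 30 bases before the start, and C1qc at position -193. It is a short core that 28.3% of the 32851 windows in the table hold. The Cd55 window held no match and was rich in G and C, at 63.3%, against 49.0% for Cfp, 56.3% for C1qb and 53.3% for C1qc. Other motifs searched on both strands were an interferon response element (GAAANNGAA, in 8.56% of windows), a gamma-activated sequence (TTCNNNGAA, 8.30%), an NF-kB site (GGGNNTTTC, 4.36%) and a C/EBP site (TTGCNNAA, 10.8%). None of these was found in the windows of Cfp, Cd55, C1qb or C1qc. The C/EBP letters were found in the windows of C3, 45 bases before the start, and of C1ra, which also held the gamma-activated sequence and the PU.1 core. The motif matches are a description of letters only.

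C1q is the recognition part of the classical branch, and its chains were among the most abundant transcripts of the cultures. C1qc, C1qb and C1qa stood at ranks 103, 104 and 112 of 22962 genes by mean FPKM. C1qa had 524, 577, 546 and 560 FPKM in DoxSa 1 to 4, against 526, 473, 532 and 496 FPKM in DMSO 1 to 4. C1qb had 559, 597, 594 and 590 FPKM in DoxSa, against 568, 514, 564 and 522 FPKM in DMSO. C1qc had 559.8, 607, 601 and 599.5 FPKM in DoxSa, against 593, 542, 564 and 520.1 FPKM in DMSO. In each of the chains DoxSa 1 was the lowest DoxSa library and lay below the highest DMSO library, so the groups overlapped, while DoxSa 2 to 4 lay above all DMSO libraries.

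By the test, none of the C1q chains was called. Log2 fold changes were 0.12 for C1qa (95% interval 0.023 to 0.22, adjusted p = 0.156), 0.11 for C1qb (0.019 to 0.20, adjusted p = 0.165) and 0.094 for C1qc (-0.0055 to 0.19, adjusted p = 0.279). The upper ends of these intervals correspond to folds of 1.17, 1.15 and 1.14. The chains are needed in equal amounts in the protein, and their levels per length were close in every library. C1qb over C1qc was 0.984 to 0.999 in DoxSa and 0.949 to 1.004 in DMSO, and C1qa over C1qc was 0.908 to 0.951 in DoxSa and 0.874 to 0.954 in DMSO. Their genes are direct neighbours on chromosome 4.

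Among the DMSO libraries, the mean log2 level of the C1q chains went with that of macrophage genes. In the other group both were lowest in DoxSa 1, but C1q was highest in DoxSa 2 and the macrophage genes in DoxSa 4. Of 16 macrophage genes listed, all in the table and 15 tested, 4 were called higher (Fcgr1, Ptprc, Cd14 and Aif1) and 0 lower. Over all tested genes, 3.88% were called higher and 2.02% lower. The list did not move evenly. Log2 fold changes of its tested genes ran from -0.011 for Cd163 and 0.0004 for Csf1r to 0.33 for Fcgr1 and 0.36 for Cd14. Over the 16 genes, the mean log2(FPKM + 1) was 6.13 to 6.18 in DoxSa and 5.96 to 6.10 in DMSO, without overlap. Their summed level overlapped, at 6736 to 7221 FPKM in DoxSa and 6054 to 7035 FPKM in DMSO. An exact two-sided permutation test of the mean level over the 70 assignments gave p = 0.0286, the smallest this design allows, and adjusted p = 0.0857 over 9 marker lists. The mean log2 level of the C1q chains minus that of the macrophage list was 2.97 to 3.08 in DoxSa and 3.02 to 3.04 in DMSO, so relative to these genes the groups overlapped and the means differed by -0.0075. More macrophages and more RNA per macrophage cannot be told apart in bulk libraries. The part of the macrophage level in the C1q values was not tested. The adipocyte list lay lower in DoxSa, with a mean log2 level of 7.86 to 7.93 in DoxSa and 7.96 to 7.99 in DMSO (exact permutation p = 0.0286, adjusted p = 0.0857), while its summed level overlapped, at 11080 to 11670 FPKM in DoxSa and 11140 to 11520 FPKM in DMSO. Of its 9 genes, 1 was called lower (Retn) and 0 higher, beside the shares of all tested genes given above. Its log2 fold changes ran from -0.20 for Retn to 0.025 for Fabp4, with Adipoq at -0.0036. The pathway gene Cfd, described below, is part of this list. The endothelium list, led by Pecam1 and low throughout, lay higher, with a mean log2 level of 0.389 to 0.431 in DoxSa and 0.299 to 0.362 in DMSO and a summed level of 1.94 to 2.17 FPKM in DoxSa and 1.42 to 1.82 FPKM in DMSO (exact permutation p = 0.0286, adjusted p = 0.0857). Within it Tek averaged lower, at 0.397 FPKM in DoxSa and 0.488 FPKM in DMSO. Cldn5 was nearly level, at 0.1169 and 0.1185 FPKM, and the other genes of the list averaged higher in DoxSa. Only Pecam1 was tested, and it was not called (limma adjusted p = 0.4835). For the other 6 lists the exact permutation p was 0.229 to 0.8. Of the 8 tested genes of the fibroblast list, 1 was called lower (Pdgfrb, limma adjusted p = 0.00383) and 0 higher, beside the shares given above. Log2 fold changes of these ran from -0.23 for Pdgfrb to 0.31 for Ly6a, which was not called.

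**Figure D2:**
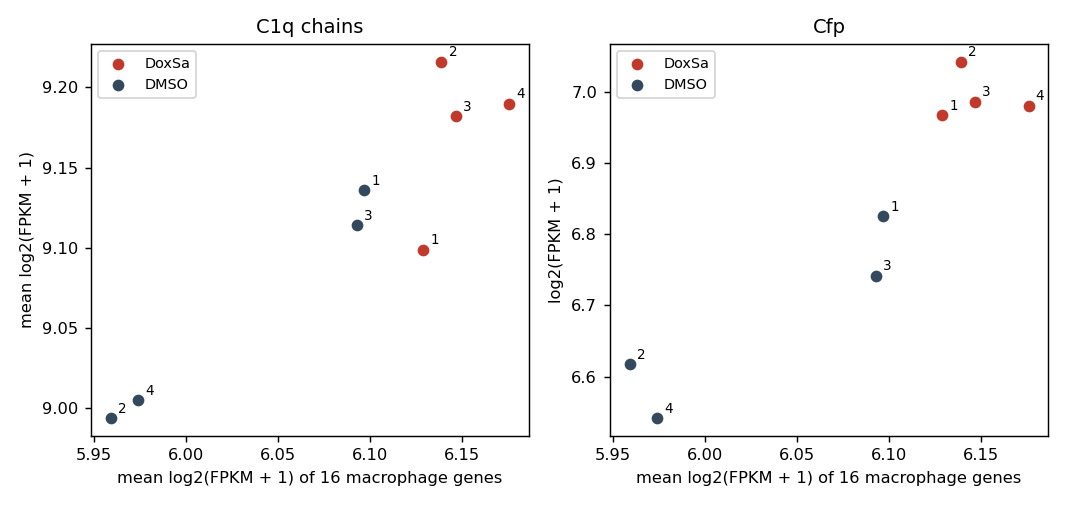
Mean log2(FPKM + 1) of the C1q chains (left) and log2(FPKM + 1) of Cfp (right) against the mean log2(FPKM + 1) of 16 macrophage genes, with 1 point per library, numbered by replicate. DMSO 2 and DMSO 4 are low on both axes in both panels, and for C1q the library DoxSa 1 lies below DMSO 1 and DMSO 3, which is not so for Cfp.

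Downstream of C1q, C1ra encodes the protease C1r, which fibroblasts are known to secrete. C1ra had 37.3, 40.04, 39.4 and 37.0 FPKM in DoxSa 1 to 4, against 43.8, 35.8, 37.8 and 38.1 FPKM in DMSO 1 to 4. DMSO 1 was the highest library and DMSO 2 the lowest, so that the DoxSa values lay inside the DMSO range. Its log2 fold change was -0.012 (95% interval -0.14 to 0.11, adjusted p = 0.943). C1s1, the gene of the partner protease, stands next to C1ra on chromosome 6 and averaged 94.2 ± 3.61 FPKM in DoxSa and 96.5 ± 4.80 FPKM in DMSO (SD, n = 4 each). It did not pass the test either (adjusted p = 0.734). The near copies C1rb and C1s2 averaged 0.153 and 0.233 FPKM in DoxSa and 0.142 and 0.188 FPKM in DMSO, and reads of such copies can be divided between them by the counting.

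C4b encodes C4, which C1s cuts and which then forms part of the enzyme that cleaves C3. C4b had 103, 97.8, 118 and 99.3 FPKM in DoxSa 1 to 4, against 113, 101, 85.5 and 111.5 FPKM in DMSO 1 to 4. DMSO 3 was the lowest library and DoxSa 3 the highest, and the groups overlapped widely. For C4b the log2 fold change was 0.030 (95% interval -0.16 to 0.22, adjusted p = 0.898). The near-identical copy C4a was on the pathway list but had no row under that symbol in the expression table, so the reads of C4b may hold some of its reads. C2, the other part of that enzyme, averaged 8.08 ± 1.42 FPKM in DoxSa and 8.16 ± 1.43 FPKM in DMSO (SD, n = 4 each, log2 fold change -0.013 with a 95% interval of -0.28 to 0.25).

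C3 is the protein on which the branches meet. C3 had 115, 107, 127.1 and 113 FPKM in DoxSa 1 to 4, against 127.1, 115, 106 and 124 FPKM in DMSO 1 to 4. The highest DoxSa library, DoxSa 3, and the highest DMSO library, DMSO 1, were level with each other. The log2 fold change of C3 was -0.029 (95% interval -0.17 to 0.11, adjusted p = 0.861), and the interval ends at folds of 0.890 and 1.08.

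Cfb encodes factor B, the protease of the alternative branch. Cfb had 36.8, 34.99, 38.9 and 28.0 FPKM in DoxSa 1 to 4, against 34.3, 24.1, 21.2 and 32.9 FPKM in DMSO 1 to 4. It was the most variable of the 9 genes within groups: DoxSa 4 lay below DMSO 1 and DMSO 4. Its log2 fold change was 0.31, with a wider error than those of Cfp and Cd55 (SE 0.14, 95% interval -0.0059 to 0.62), and it did not pass the test (adjusted p = 0.262). Cfd, the gene of factor D or adipsin, which is a major product of adipocytes, averaged 895 ± 42.1 FPKM in DoxSa and 947 ± 40.6 FPKM in DMSO (SD, n = 4 each). It stood at rank 50 of all genes and did not pass the test (log2 fold change -0.082, adjusted p = 0.351).

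Cfp encodes properdin, which stabilizes the alternative enzyme and is known as a product of monocytes, macrophages and neutrophils. Cfp had 124, 131, 126 and 125 FPKM in DoxSa 1 to 4, against 112, 97.2, 106 and 92.2 FPKM in DMSO 1 to 4. All 4 DoxSa libraries lay above all 4 DMSO libraries, and the spread was narrower in DoxSa, with 126.5 ± 2.94 FPKM in DoxSa and 102 ± 9.004 FPKM in DMSO (SD, n = 4 each). The log2 fold change was 0.31 ± 0.055 (SE, 95% interval 0.19 to 0.43), a fold of 1.24 (adjusted p = 0.00802). With no filter on low values, which raised the number of tested genes to 22962, the adjusted p was 0.0590. Beside the macrophage level given above, log2(FPKM + 1) of Cfp minus the mean of the macrophage list was 0.805 to 0.903 in DoxSa and 0.568 to 0.727 in DMSO. Relative to the mean of these genes, too, the groups of Cfp did not overlap, and the means differed by 0.20. The log2 fold change of Cfp lay inside the range of the list's own tested genes, from -0.011 for Cd163 to 0.36 for Cd14. The summed level of the neutrophil list was 3.79 to 5.83 FPKM in DoxSa and 4.03 to 5.33 FPKM in DMSO, and Ly6g, its defining gene, had at most 0.0269 FPKM in DoxSa and 0.0263 FPKM in DMSO. The part of the macrophage level in the Cfp difference was not tested.

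Cd55 encodes decay-accelerating factor, an inhibitor anchored in the membrane that takes apart the enzymes that cleave C3. Cd55 had 15.7, 13.9, 14.5 and 14.3 FPKM in DoxSa 1 to 4, against 11.7, 11.0, 12.6 and 10.5 FPKM in DMSO 1 to 4. The lowest DoxSa library lay above the highest DMSO library. The means were 14.6 ± 0.749 FPKM in DoxSa and 11.5 ± 0.928 FPKM in DMSO (SD, n = 4 each), from 3297 to 4981 reads per library. The log2 fold change was 0.33 ± 0.056 (SE, 95% interval 0.20 to 0.45), a fold of 1.254 (adjusted p = 0.00751). Its near copy Cd55b averaged 0.165 FPKM in DoxSa and 0.113 FPKM in DMSO. A non-coding RNA, Cd55os, overlaps both genes in RefSeq, and without a stated strand setting its reads cannot be told from theirs. Minus the mean of the macrophage list, log2(FPKM + 1) of Cd55 was -2.24 to -2.07 in DoxSa and -2.46 to -2.33 in DMSO, again without overlap. The log2 fold change of Cd55, like that of Cfp, lay inside the range of the tested genes of that list. The groups of Cfp and Cd55 did not overlap, which held with DoxSa higher for 7.8% of all tested genes and in either direction for 12.5%.

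Some of the 9 genes varied together from library to library. Deviations of log2(FPKM + 1) from the mean of each library's own group were correlated over the 8 libraries, as a description. These points share library, depth and culture. C4b and C3 had r = 0.98, C4b and Cfb 0.86, and C3 and Cfb 0.79. C1qa and C1qb had r = 0.93, C1qb and C1qc 0.90, and C1qa and C1qc 0.76. Cfp had r = 0.89 to C1qc, 0.84 to C1qb and 0.72 to C1qa. C1ra lay between, with r = 0.71 to C1qb, 0.72 to Cfp and 0.65 to Cfb, and C4b and C1qa had r = -0.32. C4b, C3 and Cfb were high in DMSO 1, DMSO 4 and DoxSa 3 of their groups and low in DMSO 3, whereas the C1q chains and Cfp were high in DMSO 1 and DMSO 3 and low in DMSO 2 and DMSO 4. With the macrophage list, C1qb had r = 0.89, Cfp 0.85, C1qa 0.80, C1qc 0.77, Cd55 0.62 and C1ra 0.57. C3 had -0.10, Cfb -0.15 and C4b -0.25. The deviations of the macrophage list ran from -0.018 to 0.028 in DoxSa and from -0.072 to 0.067 in DMSO. The r values with this list therefore rest mostly on the DMSO libraries.

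**Figure D3:**
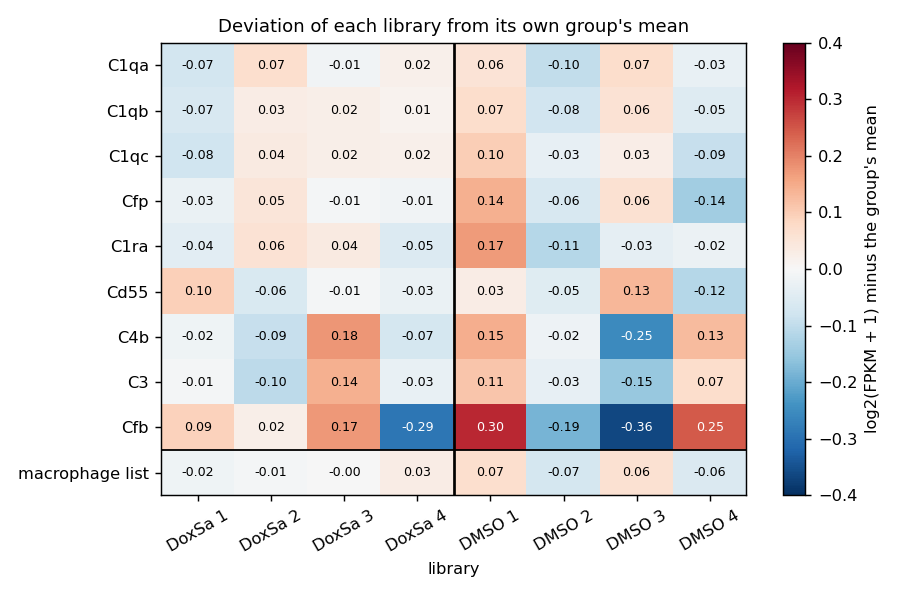
Deviation of log2(FPKM + 1) of each library (columns, DoxSa left of the black line) from its own group's mean, for the 9 complement genes and the mean of the macrophage list (rows). C4b, C3 and Cfb are red (above the mean) in DoxSa 3, DMSO 1 and DMSO 4 and blue (below it) in DMSO 3, where Cfb is at -0.36, while the C1q chains, Cfp and the macrophage list are red in DMSO 1 and DMSO 3 and blue in DMSO 2 and DMSO 4.

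The genes whose within-group pattern was most like that of each member were taken from 10564 protein coding genes that averaged 1 FPKM or more, by r over the 8 libraries. Among so many genes and over so few points, some reach a high r by chance, and how many do was not tested. The ranks are therefore a description only. For Cfb the closest genes were Ifi44, an interferon-induced gene (r = 0.99), H2-Q4, a gene of the MHC class I family (0.99), and Whamm (0.99). Ifi44 averaged 4.58 FPKM in DoxSa and 2.32 FPKM in DMSO, and like Cfb it did not pass the test (adjusted p = 0.0634). For C3 and C4b alike, Atp9a and Wfs1 were among the closest 3, with r = 0.95 and 0.94 for C3 and 0.96 and 0.94 for C4b. As C3 and C4b had r = 0.98 to each other, sharing these genes is not a separate result. The mean of the C1q chains was closest to Fzd5, a receptor gene of the WNT pathway (0.98), Vps8 and Wipf2. Fzd5 itself fell in DoxSa, at 3.44 FPKM in DoxSa and 4.83 FPKM in DMSO (adjusted p = 0.00479). Cfp was closest to Prkra (0.99), Gpx3 and Anapc11, and Cd55 to Nop16 (0.98), Adh1 and Aatk. C1ra was closest to Efna2 (0.97), Rrp15 and Taok3.

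The rest of the pathway was described with a list of 59 genes, of which 50 were in the table and 31 were tested. Of these 31, 3 were called higher (Cd55, Cfp and Fcna) and 0 lower, beside 3.88% and 2.02% of all tested genes. The median log2 fold change was 0.074, against 0.01 over all tested genes. By role, the calls were 0 of 7 classical, 1 of 3 lectin, 1 of 4 alternative, 0 of 1 terminal, 1 of 8 inhibitor and 0 of 8 receptor genes.

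Fcna encodes ficolin A, a lectin made by macrophages that can start the lectin branch. Fcna had 22.3, 21.7, 20.2 and 21.2 FPKM in DoxSa 1 to 4, against 19.4, 15.99, 16.7 and 18.1 FPKM in DMSO 1 to 4, without overlap. The log2 fold change was 0.27 ± 0.056 (SE, adjusted p = 0.0171). It was not called without DoxSa 1 (adjusted p = 0.0555), without DoxSa 2 (0.0539) or with no filter on low values (0.0828). Relative to the macrophage list, the Fcna groups overlapped, at -1.74 to -1.59 in DoxSa and -1.95 to -1.72 in DMSO. The non-coding RNA Fcnaos overlaps Fcna in RefSeq, and reads of such genes can be divided by the counting. Colec12, the most abundant gene of the lectin list, averaged 80.4 ± 3.93 FPKM in DoxSa and 80.1 ± 3.904 FPKM in DMSO (SD, n = 4 each, log2 fold change 0.0055, adjusted p = 0.970). The proteases of that branch were scarce: Masp1 averaged 0.565 FPKM in DoxSa and 0.571 FPKM in DMSO, and Masp2 0.0355 FPKM in DoxSa and 0.0337 FPKM in DMSO.

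**Figure D4:**
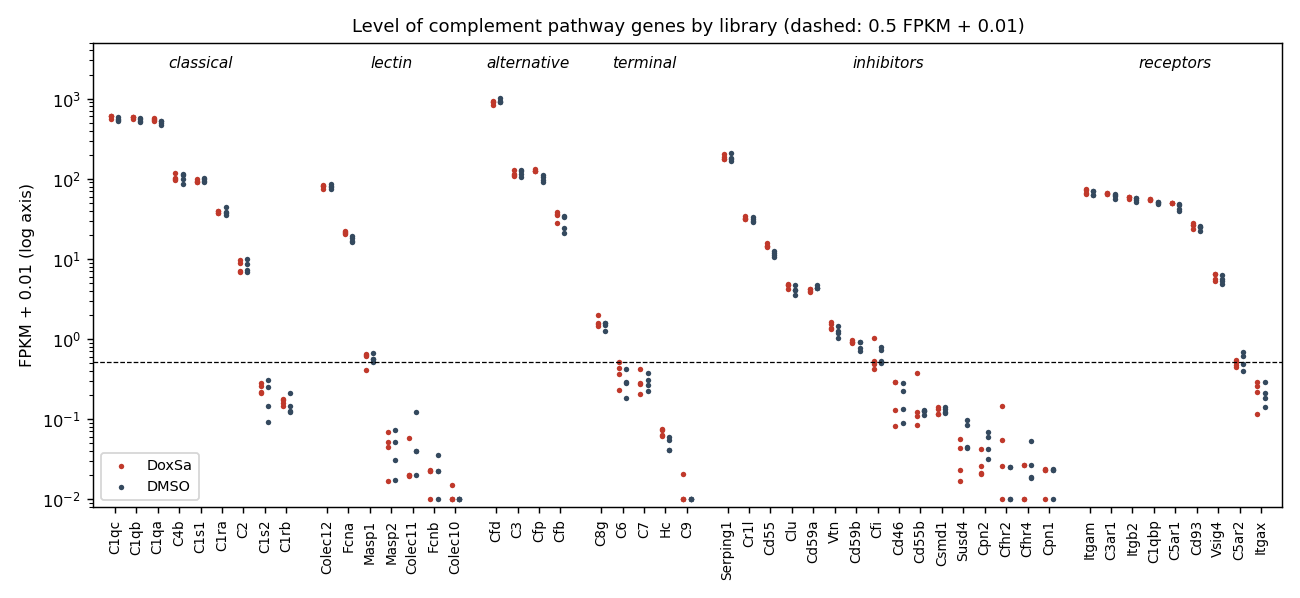
FPKM + 0.01 on a log axis of the 50 complement pathway genes in the table, by role and by level within a role, with 1 point per library and DoxSa left of DMSO for each gene. The highest gene is Cfd, at 838.5 to 940.4 FPKM in DoxSa, and most terminal components lie below the dashed line at 0.5 FPKM, the minimum mean for the test.

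The terminal components, which build the membrane pore, were low. Hc, the gene of C5, averaged 0.0583 FPKM in DoxSa and 0.0390 FPKM in DMSO, C6 averaged 0.374 FPKM in DoxSa and 0.284 FPKM in DMSO, and C7 averaged 0.286 FPKM in DoxSa and 0.284 FPKM in DMSO. C9 had at most 1 read in any library. Only C8g among them passed the FPKM minimum, and it did not pass the test (adjusted p = 0.546).

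Of the inhibitors other than Cd55, Serping1 was the most abundant. It encodes the C1 inhibitor, which blocks C1r and C1s, and averaged 187 ± 13.4 FPKM in DoxSa and 184 ± 18.4 FPKM in DMSO (SD, n = 4 each, log2 fold change 0.027, adjusted p = 0.884). The inhibitors and receptors in the sentences that follow were named after their values were seen. Cr1l, whose product Crry is the main inhibitor of C3 cleavage on mouse cells, averaged 32.3 ± 1.41 FPKM in DoxSa and 31.0 ± 1.75 FPKM in DMSO, with an interval of its log2 fold change of -0.042 to 0.16 (adjusted p = 0.539). Cd59a, which blocks the membrane pore, averaged 4.07 ± 0.161 FPKM in DoxSa and 4.39 ± 0.191 FPKM in DMSO (log2 fold change -0.089, adjusted p = 0.321). Its groups did not overlap, with DoxSa lower, as for 1 of the 31 tested pathway genes, while 5 of the 31 did not overlap with DoxSa higher. Over all tested genes, 12.5% did not overlap in either direction and 7.8% with DoxSa higher.

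None of the 8 tested receptor genes was called, with a median log2 fold change of 0.084 and a range of -0.046 to 0.17. Itgam, the most abundant, encodes a chain of complement receptor CR3 and averaged 69.2 ± 4.86 FPKM in DoxSa and 66.1 ± 4.43 FPKM in DMSO (SD, n = 4 each, log2 fold change 0.065, adjusted p = 0.596). C5ar1, the receptor of the attractant C5a, had the largest fold change of these 8. It averaged 49.8 ± 0.437 FPKM in DoxSa and 44.1 ± 3.84 FPKM in DMSO (SD, n = 4 each, log2 fold change 0.17, adjusted p = 0.0859), and its groups did not overlap. C3ar1, the receptor of C3a, averaged 65.5 ± 1.247 FPKM in DoxSa and 61.4 ± 3.91 FPKM in DMSO (adjusted p = 0.277). C1qbp, whose product binds C1q and also works in mitochondria, averaged 54.9 ± 1.02 FPKM in DoxSa and 50.5 ± 1.44 FPKM in DMSO (log2 fold change 0.12, adjusted p = 0.0553), likewise without overlap. The groups of the other 6 overlapped: Itgb2, Cd93 and Vsig4 had log2 fold changes of 0.074, 0.076 and 0.093, and C5ar2 had -0.046. C5ar1 is expressed in macrophages, whose list lay at a higher mean log2 level in DoxSa as given above, and the part of that in its values was not tested.

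**Figure D5:**
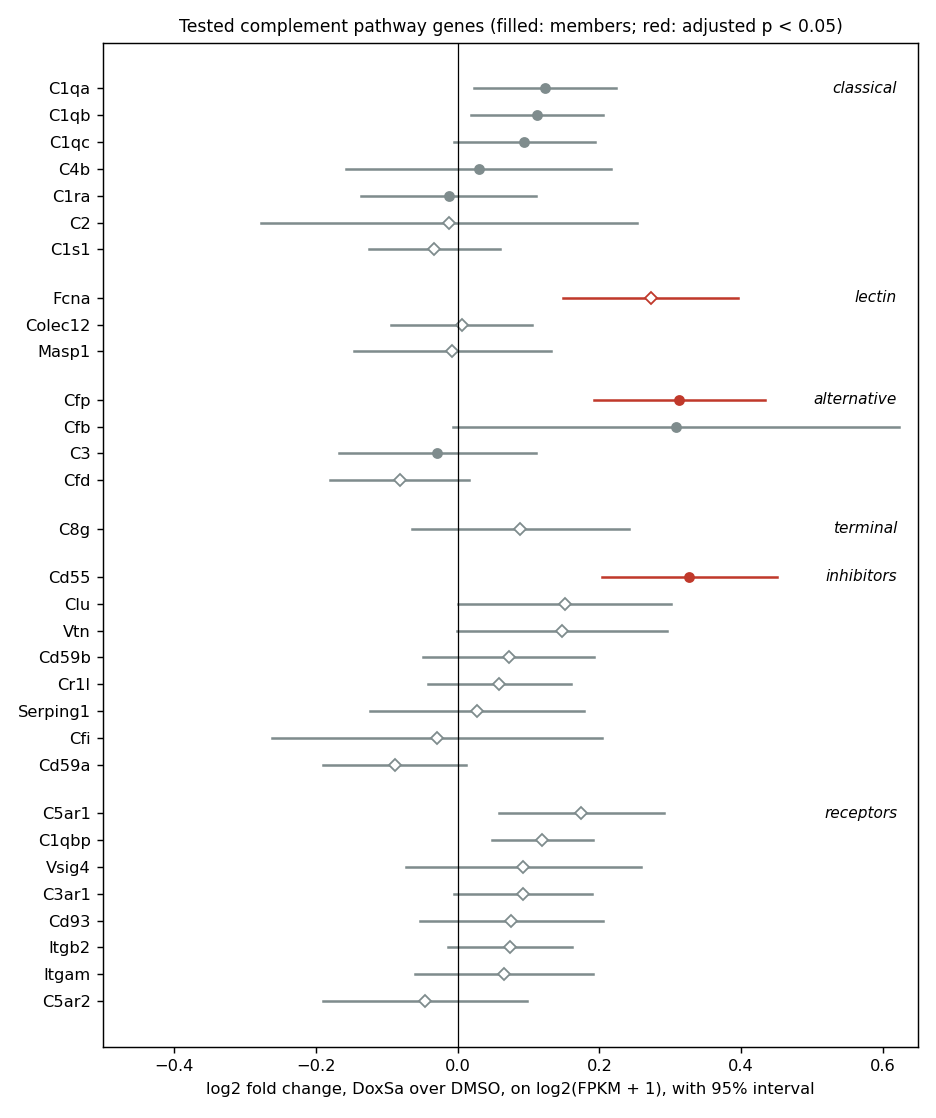
Log2 fold change of DoxSa over DMSO on log2(FPKM + 1) with its 95% interval for the 31 tested complement pathway genes, by role (circles, the 9 genes described here; diamonds, the rest of the list; red, adjusted p under 0.05). Cd55, Cfp and Fcna are red at 0.33, 0.31 and 0.27, and the interval of Cfb is the widest.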

How the data were processed

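The authors deposited 1 table of FPKM for the 8 libraries. HISAT2, HTSeq and GRCm39 are named per the submitters' processing notes. Their versions, the annotation and the strand setting were not given in the sources used here. Per the labels' protocols, TRIzol was used for RNA and a VAHTS kit for libraries. FPKM values shift where some genes take many reads. Groups and replicate numbers came from sample titles. Whole reads were recovered from the FPKM steps for 12060 of 12060 tested genes (within 0.001 of a whole number).

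The test was limma (3.58.1, R 4.3.3; lmFit, eBayes with intensity trend) on log2(FPKM + 1) for genes averaging 0.5 FPKM or more, DoxSa minus DMSO, with no scaling and no covariate, and Benjamini-Hochberg adjustment over all tested genes. Log2(FPKM + 1) understates changes of low genes. The fit was checked on simulated data. Folds are on the FPKM + 1 scale. Alternatives were a pseudocount of 0.1, other filters, median-of-ratios and quantile scaling, no trend, a replicate block, voom on the recovered reads, and leaving out each library.

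One gene of the pathway list is not reported here. The members and lists were chosen with earlier results of these data known. Named were all 9 members, called pathway genes, the 6 uncalled pathway genes with the highest mean FPKM, the highest gene of each marker list, and for likeness the 3 genes with the highest r. All other genes were named after their values were seen. No protein sequences were used here. Scripts ran in Python 3.11.15 with numpy 2.4.6, pandas 2.3.3 and matplotlib 3.10.9.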

Additional observations from a re-analysis of the deposited data

Results flagged for a closer look

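In groups of 4 libraries, a library was noted where its gap to the nearest of the others took up most of the group's range (Dixon's test at 95%). This held for 5 of 80 groups examined, and chance flags about 1 in 20. DoxSa 1 was the lowest of its group in C1qc, at 559.8 FPKM beside 599.5 to 607 FPKM in the other DoxSa libraries. It was also lowest in Colec12, the gene of a scavenger receptor, at 74.5 FPKM beside 81.8 to 83.0 FPKM, in Itgb2, the gene of an integrin chain of complement receptors, at 56.4 FPKM beside 58.5 to 58.9 FPKM, and in Masp1 at 0.400 FPKM beside 0.597 to 0.633 FPKM. DMSO 2 had the highest mean log2 level of the mast cell list, at 0.0516 beside 0.0221 to 0.0266, with all genes of that list under 0.5 FPKM.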

How the results depend on the processing

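Cfp and Cd55 were called in 15 of 16 alternatives together. With no filter on low values 1 member was called, Cd55, and 1 pathway gene, while 158 genes were higher and 108 lower over all genes; the test then covered 22962 genes. Leaving out each library in turn gave 2 members and 2 to 4 pathway genes called higher, 0 members and 0 pathway genes called lower, and over all genes 234 to 486 higher and 152 to 234 lower. The lowest counts came without DoxSa 2 (234 and 152), and 250 were higher and 154 lower without DoxSa 1 and 158 lower without DMSO 2. Over left-out libraries the log2 fold change was 0.27 to 0.36 for Cfp (adjusted p 0.00248 to 0.0337) and 0.29 to 0.37 for Cd55 (0.00416 to 0.0253). It changed sign without being called for C1ra (-0.050 to 0.045), C4b (-0.055 to 0.079), C3 (-0.080 to 0.0084) and Serping1 (-0.020 to 0.091). C1qbp was called with a minimum mean of 2 FPKM and with quantile normalization, and C5ar1 by voom and without DMSO 3. The labels do not say that replicate numbers mark a shared culture, so the numbers were not taken as pairs in the main fit. Same-numbered libraries also did not deviate together (r from -0.099 to 0.065 over 4 pairs). With the replicate block, 2 members, 3 pathway genes and 415 genes were higher and 209 lower. FPKM depth limits the terminal components, of which C9 had at most 1 read.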

Other observations

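Levels per length of partners that act together gave values that belong to no comparison above. C1ra over C1s1 was 0.403 to 0.417 in DoxSa and 0.380 to 0.429 in DMSO, so the message of C1s stood above that of C1r in all 8 libraries. C3 over C4b was 1.08 to 1.14 in DoxSa and 1.11 to 1.24 in DMSO. Cfd over Cfb was 22.8 to 32.2 in DoxSa and 28.6 to 43.4 in DMSO, with overlap, so the message of factor D exceeded that of its substrate factor B in all libraries.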
